A study of Homo sapiens with 6 samples.

Results

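The control region is the main noncoding stretch of human mitochondrial DNA. On the circular chromosome it lies between the genes of tRNA-Pro and tRNA-Phe, and on the GRCh38 mitochondrial chromosome it takes up positions 16024 to 16569 and 1 to 576. Its members were taken by position, with no measured value in the rule, and came to 1122 of the 16569 bases of the chromosome. The region itself was chosen with earlier results of these data known. The 546 bases before the end of the numbering are called the tRNA-Pro side arm here, and the 576 bases from position 1 the tRNA-Phe side arm. The measurement was the depth-scaled read coverage at each base in 6 poly(A)-selected RNA libraries, as 1 value per base with no strand given.

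The control region carries the signals that start transcription and replication of mitochondrial DNA. The heavy-strand promoter, in the tRNA-Phe side arm, starts the long transcript that holds both rRNAs and most mRNAs. The light-strand promoter, in the same arm, fires in the opposite direction, so its transcripts run back through the conserved sequence blocks, over the joint of the numbering and through the tRNA-Pro side arm towards tRNA-Pro and ND6. Many of its transcripts end early near the conserved sequence blocks, as a short polyadenylated RNA or as the primer for heavy-strand replication, and a nascent DNA strand that stops near the termination-associated sequence forms the displacement loop. The product of C17orf80 (also MTNAP1) is known from the nucleoids, the protein-DNA particles that hold this chromosome.

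All libraries came from HEK-293T, an established line of human embryonic kidney origin, transformed with SV40 large T. In 3 WT libraries the cells had received a non-targeting guide RNA, and in 3 libraries labelled C17orf80 knockout a guide against that gene. The knockout line was made with CRISPR/Cas9 and monoclonal cells were picked under puromycin, per the labels. How many clones were used is not stated there, and clone and guide cannot be told apart. The labels number the replicates but do not say whether they were separate cultures, and the p-values measure only the spread between these libraries. Changes are given as knockout-labelled over WT, with n = 3 libraries per group, SD after levels and standard errors (SE) after fitted log2 changes.

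Gene counts per library ranged from 14982340 to 16278091. The kidney developmental genes EYA1 and PAX2 were expressed in each library, at 6.01 to 22.1 and 3.14 to 9.68 CPM (gene counts scaled to a common library size). EYA1 was lower in the knockout-labelled libraries (edgeR adjusted p = 0.0061). The leukocyte gene PTPRC had 0 counts and the liver gene ALB at most 0.252 CPM. For C17orf80 the WT replicates gave 397, 451 and 476 counts and the knockout-labelled replicates 763, 699 and 698, an edgeR log2 change of 0.78 ± 0.17 (SE; adjusted p = 0.0232), a call lost without any 1 of the WT replicates or without knockout-labelled replicate 3 (edgeR adjusted p up to 0.127). The transcript was therefore higher under the knockout label. Gene counts show neither the edited site nor the protein, and the label is used below only as the name of the group. Knockout-labelled replicate 1 stood apart. Its log2 CPM correlated across genes at Pearson's r of 0.934 and 0.949 with replicates 2 and 3, against 0.992 between those and 0.994 for each WT pair. Its mean mitochondrial coverage was 1010 deposited units per base, against 476 to 558 in the other libraries. The arm, ratio, bin and factor results below are therefore given with and without this library. Coverage is a property of a whole library, so fewer cells with a transcript and less transcript per cell cannot be told apart.

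In WT the control region was covered thinly and unevenly. Its mean coverage was 17.2, 15.5 and 17.04 units in replicates 1 to 3, which was 3.61%, 3.10% and 3.30% of each library's own mean mitochondrial coverage. 1 unit corresponded to between 37.0 and 42.0 reads, depending on the library, so single bases of the control region carried from 39 to 7380 reads over the 6 libraries. The profile had a broad plateau in the tRNA-Pro side arm, a minimum at the joint of the numbering, a second peak between positions 101 and 200, and a trough from position 301 on. The WT bin (a fixed stretch of 50 bases) of highest coverage was positions 16424 to 16473, at 30.2 ± 3.37 units (SD), and that of lowest coverage was positions 301 to 350, at 1.91 ± 0.33 units. The base of lowest coverage in the tRNA-Pro side arm was position 16569, the last of the numbering, in each of the 6 libraries, where 167 to 644 reads lay. Position 1, its neighbour on the circle, was lower still in each library, with 85 to 375 reads. Whether reads across the joint of the numbering were lost was not tested, and without the 100 bases on either side of it the log2 ratio of control region coverage was 1.23 as deposited, against 1.13 with them.

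**Figure D1:**
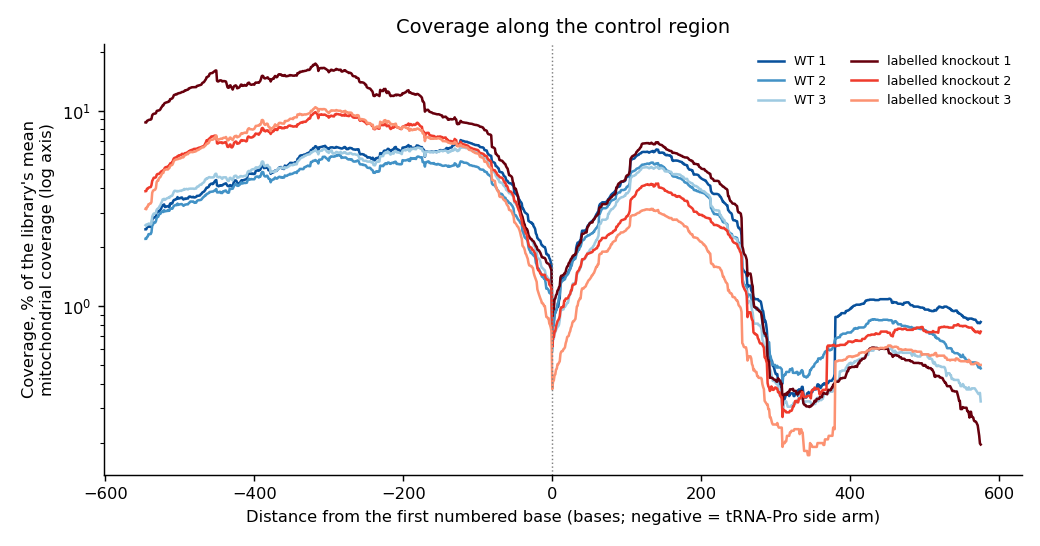
Coverage at each of the 1122 control region bases in the 6 libraries, as a percentage of the library's mean mitochondrial coverage (log axis), against the distance from position 1, with the tRNA-Pro side arm at negative values. The 3 libraries labelled knockout lie above the 3 WT libraries over the left 418 bases, and the groups interleave over most of the right arm.

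In the tRNA-Pro side arm, every library labelled knockout lay above all WT libraries. The mean coverage of the arm was 24.2, 21.9 and 25.6 units in WT replicates 1 to 3 and 115, 33.3 and 38.1 units in the knockout-labelled libraries. As a percentage of the library's own mitochondrial mean it stood at 5.08%, 4.38% and 4.96% in WT and at 11.4%, 6.81% and 6.83% in the knockout-labelled libraries. The groups did not overlap on either scale. The ratio of group means on the own-mean scale was 1.74, and 1.42 without replicate 1. The 2.37-fold level of replicate 1 over the WT mean was thus the largest, with 1.42-fold in both other replicates.

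The difference was not even along this arm. Read base by base on the deposited scale, all libraries labelled knockout exceeded all WT libraries at 424 of the 546 bases, in 1 unbroken run from position 16024 to 16447. These 424 bases were 37.8% of the control region, and over the whole chromosome 40.9% of bases had this order. On the own-mean scale the run was 418 bases, from position 16024 to 16441, against 29.6% of all bases. It made up 37.3% of the control region. Leaving out a knockout-labelled library can only keep or lengthen such a run, so it cannot show whether the run rests on replicate 1. Both runs were unchanged without it, at 37.8% and 37.3% of the control region, against 44% and 42.9% of all bases. The ratio of group means on the own-mean scale peaked at position 16115, at 2.40, and first went below 1 at position 16517. Without replicate 1 it peaked at position 16198, at 1.72, and first went below 1 at position 16489.

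The bin next to tRNA-Pro, positions 16024 to 16073, was at 3.13%, 2.92% and 3.35% of the mitochondrial mean in WT replicates 1 to 3. In the libraries labelled knockout it was at 10.6%, 4.99% and 4.66%. The bin with the most positive fitted change lay beside it, at positions 16074 to 16123, with 3.85%, 3.58% and 4.26% in WT and 13.9%, 6.64% and 6.51% in the knockout-labelled libraries. These bins, at the far end of the arm from the promoters, kept the groups apart by more than their spread within WT. The termination-associated sequence lies by textbook annotation in the bin at positions 16124 to 16173, which stood at 4.39%, 4.15% and 4.66% in WT and 13.6%, 6.97% and 7.54% in the knockout-labelled libraries.

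Towards the joint of the numbering the difference faded. The bin of highest WT coverage, at positions 16424 to 16473, was at 6.68%, 5.26% and 6.26% in WT and 8.76%, 6.72% and 6.52% in the knockout-labelled libraries, and the groups overlapped on this scale. The last bin, positions 16524 to 16569, was at 2.51%, 1.81% and 2.05% in WT and 2.19%, 1.92% and 1.46% in the knockout-labelled libraries. Over all libraries it was the single bin of this arm with a fitted own-mean change below 0, at -0.18 ± 0.23 (SE) on the log2 scale, and as deposited it was at 0.18 ± 0.46 (SE). Without replicate 1 it was at -0.30 ± 0.22 (SE) on the own-mean scale and turned to -0.23 ± 0.18 (SE) as deposited, and the bin at positions 16474 to 16523 also had an own-mean change below 0, at -0.04 ± 0.18 (SE). The position of highest coverage differed as well. It was position 16252 in each library labelled knockout, and positions 16447, 16282 and 16447 in WT replicates 1 to 3.

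The tRNA-Phe side arm, which holds both promoters, showed no increase shared by the libraries labelled knockout. Its mean coverage was 10.6, 9.48 and 8.93 units in WT and 22.1, 7.54 and 6.25 units in the knockout-labelled libraries, so replicate 1 lay above WT and replicates 2 and 3 below it. On the own-mean scale replicate 1 fell within the WT range, with 2.22%, 1.90% and 1.73% in WT and 2.19%, 1.54% and 1.12% in the knockout-labelled libraries. The direction of the group difference therefore depended on the scale, with a log2 ratio of means of 0.31 as deposited and -0.27 on the own-mean scale. Without replicate 1 it was negative on both, at -0.49 and -0.55. At 0 of the 576 bases did all libraries labelled knockout exceed WT, on either scale. Without replicate 1 all bases from position 21 to 335 were lower on the deposited scale, part of 332 such bases of the arm, against 20.6% of all bases. In own-mean coverage 291 were lower, against 29.2% of all bases.

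Within this arm the peak bin at positions 101 to 150 was at 5.90%, 5.10% and 4.86% of the mitochondrial mean in WT and at 6.35%, 3.90% and 2.98% in the knockout-labelled libraries. The stretch between positions 201 and 400, where the short RNA from the light-strand promoter lies, averaged 1.42%, 1.26% and 1.15% in WT and 1.53%, 1.05% and 0.642% in the knockout-labelled libraries. In both, replicate 1 was the highest of all libraries and replicates 2 and 3 were the lowest. The first conserved sequence block lies in the bin at positions 201 to 250, with 3.58%, 2.92% and 2.97% in WT and 4.17%, 2.52% and 1.53% in the knockout-labelled libraries. The other two blocks fall in or at the edges of the trough bin at positions 301 to 350, which held 0.365%, 0.459% and 0.33% in WT and 0.357%, 0.329% and 0.216% in the knockout-labelled libraries. The groups overlapped in each of these bins.

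The promoter bins were low in each library. The bin with the light-strand promoter start, positions 401 to 450, was at 1.05%, 0.811% and 0.567% in WT and 0.563%, 0.698% and 0.587% in the knockout-labelled libraries. The short last bin, positions 551 to 576, holds the heavy-strand promoter start and borders tRNA-Phe. It stood at 0.854%, 0.518% and 0.374% in WT and 0.269%, 0.764% and 0.513% in the knockout-labelled libraries. Here the WT libraries alone spanned the values of replicates 2 and 3, and replicate 1 was the lowest of all. Of the bins of this arm the most negative fitted own-mean change was at positions 51 to 100, with a log2 change of -0.33 ± 0.26 (SE), and the least negative at positions 551 to 576, with -0.15 ± 0.34 (SE). Without replicate 1 the most negative was at positions 151 to 200, with -0.63 ± 0.19 (SE), and the bin at positions 551 to 576 turned to 0.14 ± 0.32 (SE).

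The ratio between the arms needs no scaling between libraries. Coverage of the tRNA-Pro side arm over that of the tRNA-Phe side arm was 2.28, 2.31 and 2.87 in WT replicates 1 to 3 and 5.20, 4.42 and 6.10 in the knockout-labelled libraries. Each library labelled knockout was above each WT library, and the means of 2.49 ± 0.33 and 5.24 ± 0.845 (SD) differed 2.11-fold. Replicate 1, apart in total mitochondrial signal, lay between the other two in this ratio, and without it the means differed 2.12-fold. The tRNA-Pro side arm held 68.4%, 68.6% and 73.1% of control region coverage in WT and 83.1%, 80.7% and 85.3% in the knockout-labelled libraries. The control region as a whole took 0.245%, 0.210% and 0.223% of all mitochondrial coverage in WT and 0.451%, 0.278% and 0.264% in the knockout-labelled libraries.

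**Figure D2:**
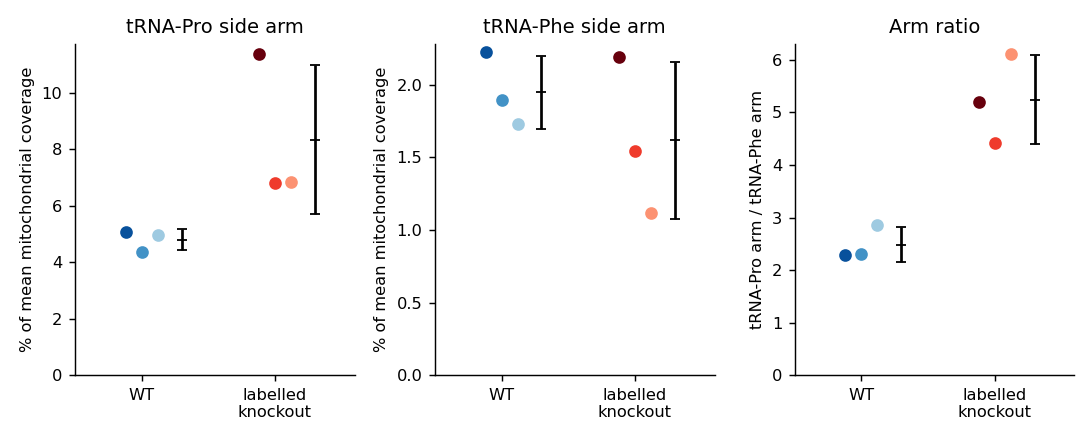
Mean coverage of each control region arm as a percentage of the library's mean mitochondrial coverage, and the ratio of the arms, with 1 point per library and the mean ± SD (n = 3) beside each group. The tRNA-Pro side arm and the ratio do not overlap between groups (ratio 2.28 to 2.87 in WT, 4.42 to 6.10 in the knockout-labelled libraries), whereas the tRNA-Phe side arm overlaps.

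Bins and bases were tested with limma over the whole chromosome, on log2 (coverage + 1) with Benjamini-Hochberg adjustment, and a call means an adjusted p under 0.05. Over all 6 libraries 0 of the 23 control region bins were called on either scale, while 0% of all 332 bins were called as deposited and 6.02% on the own-mean scale. Of the 1122 bases 0 were called on either scale, against 0% and 5.66% of all bases. At an unadjusted p under 0.05 limma had 315 of them (28.1%) higher and 0 lower as deposited, where 9.82% of all bases were higher and 0% lower. In own-mean coverage it had 368 (32.8%) higher and 1 lower, where 18.4% of all bases were higher and 12.2% lower. For bins, at an unadjusted p under 0.05, limma gave 6 higher and 0 lower control region bins as deposited, where 9.94% of all bins were higher and 0% lower. On the own-mean scale it gave 7 higher and 0 lower, where 18.7% of all bins were higher and 12% lower. These bins lay in the tRNA-Pro side arm. The bin at positions 16074 to 16123 had a fitted change of 1.09 ± 0.33 (SE) on the own-mean scale (limma adjusted p = 0.123). Its fitted change was 1.47 ± 0.58 (SE) as deposited (limma adjusted p = 0.296).

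Without knockout-labelled replicate 1 the same fit called 8 bins of the tRNA-Pro side arm higher and 4 of the tRNA-Phe side arm lower on the deposited scale. Calls were common in that fit, with 31.3% of all bins higher and 13.6% lower. On the own-mean scale 7 bins were called higher and 4 lower, against 33.4% and 25.3% of all bins. Of the bases, 539 (48%) were called as deposited, where 43.8% of all bases were, and 529 (47.1%) in own-mean coverage, where 57.8% were. The called rises covered positions 16024 to 16373 on both scales, and to 16423 as deposited. The called falls covered positions 51 to 250. The bin at positions 16074 to 16123 then rose by 0.73 ± 0.16 (SE; limma adjusted p = 0.0088, own-mean scale), 15th of the 332 bins by size of increase. The bin at positions 151 to 200 fell by 0.63 ± 0.19 (SE; limma adjusted p = 0.0224), and that at positions 101 to 150 by 0.60 ± 0.19 (SE; limma adjusted p = 0.0232).

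**Figure D3:**
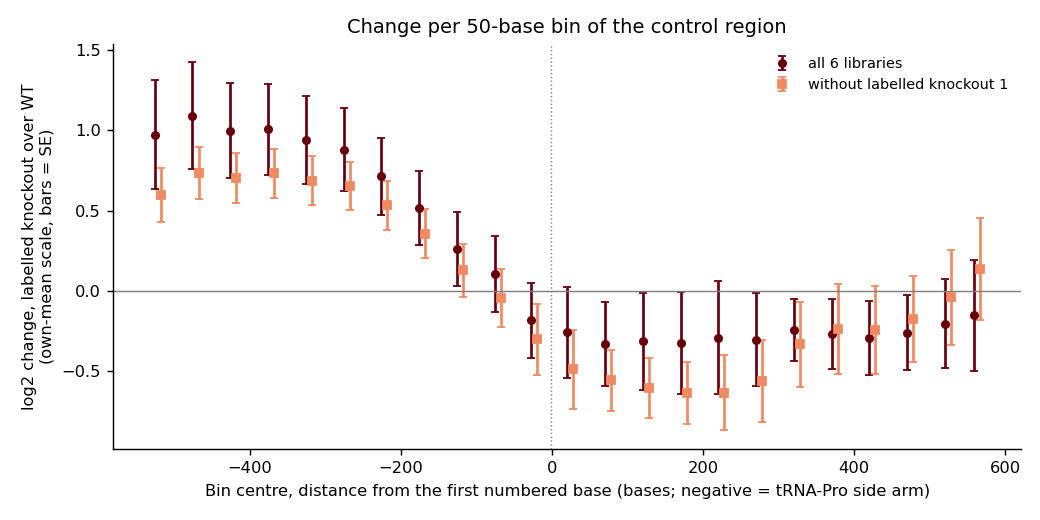
Fitted log2 change (labelled knockout over WT) of the 23 control region bins on the own-mean scale, with SE bars, over all 6 libraries and without knockout-labelled replicate 1, against the distance of the bin centre from position 1. Values span 1.09 in the left arm to -0.33 in the right arm over all libraries, and 0.73 to -0.63 without replicate 1.

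The median fitted log2 change of the 11 tRNA-Pro side bins was 0.878 on the own-mean scale and that of the 12 tRNA-Phe side bins -0.279, beside a median of 0.0646 over all bins. As deposited the medians were 1.26, 0.0552 and 0.451, and 0.661, -0.346 and 0.164 without replicate 1. On the own-mean scale without replicate 1 they were 0.598, -0.409 and 0.0935. Scaling by the median instead of the mean mitochondrial coverage shifted the median of all bins from 0.0646 to 0.327. It called 8 control region bins higher, all on the tRNA-Pro side, where 31.3% of all bins were called higher. It called 404 control region bases (36%), where 37% of all bases were called.

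Sharp edges in the profile were shared by all libraries in some places and not in others. Between positions 255 and 256 the read depth dropped from 404 to 277 in WT replicate 1, from 386 to 274 in replicate 2 and from 383 to 280 in replicate 3. In the libraries labelled knockout it dropped from 1197 to 858, from 350 to 260 and from 211 to 146. This was the largest relative single-base fall of the arm in each of the 6 libraries, with losses of 26.9% to 31.4% in WT and 25.7% to 30.8% in the knockout-labelled libraries. The edge thus had the same place and a similar relative size in both groups, also in replicate 1.

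Other edges were found in some libraries and not in others. At position 381 the depth jumped from 79 to 155 reads in WT replicate 1 and from 53 to 118 in knockout-labelled replicate 3. The same step added 4 or fewer reads in the other libraries, as in WT replicate 2, which went from 134 to 138. Knockout-labelled replicate 2 had its jump at position 370, from 74 to 121 reads. These jumps were found in libraries of both groups. By contrast, at position 106 depth went up in all 6 libraries, by 12.3% to 14.2% in WT and 11.5% to 14.9% in the knockout-labelled libraries.

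**Figure D4:**
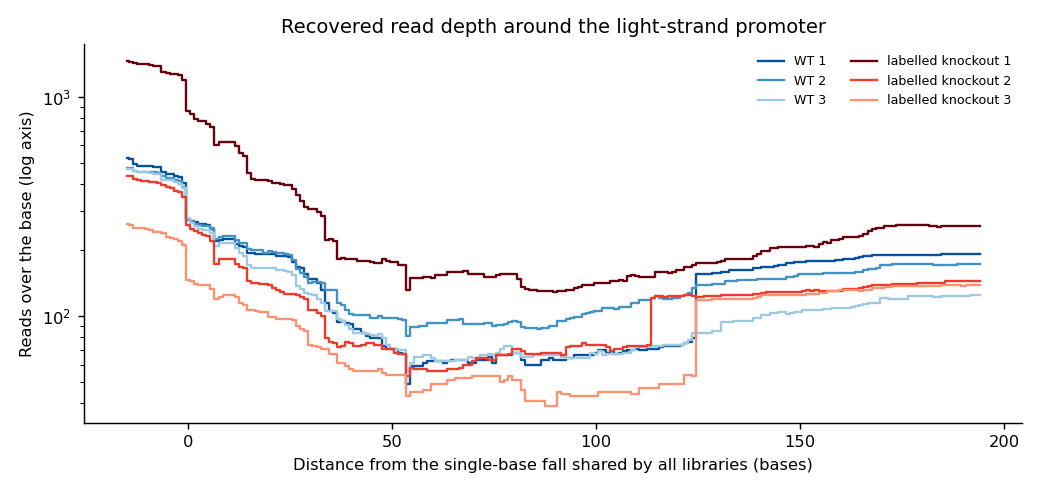
Reads over each base (log axis) in the 6 libraries around the trough and the light-strand promoter, against the distance from the fall between positions 255 and 256. All libraries share the fall at distance 0, while the upward jumps of 47 to 76 reads belong to 3 libraries, 1 of them WT.

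At the tRNA-Pro border the groups already stood apart. Position 16024 was covered by 435, 446 and 526 reads in WT and by 3690, 758 and 710 in the knockout-labelled libraries. Between positions 16032 and 16033 it went from 448 to 489, from 482 to 521 and from 538 to 582 reads in WT, and from 3846 to 4012, from 814 to 856 and from 770 to 858 in the knockout-labelled libraries. This was the largest relative single-base rise of the arm in 5 of the 6 libraries, all but knockout-labelled replicate 1. Near the other end, the largest fall of WT coverage between adjoining stretches of 10 bases lay after position 16530, from 16.7 to 13.9, 13.6 to 10.8 and 16.0 to 12.6 units in WT replicates 1 to 3. In the libraries labelled knockout it went from 34.1 to 24.9, 14.8 to 11.1 and 13.5 to 10.1 units there.

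The genes flanking the region gave the local context. MT-CYB (positions 14747 to 15887), the last heavy-strand mRNA before the region, was at 90.0%, 86.1% and 82.9% of the mitochondrial mean in WT and at 48.9%, 36.8% and 34.5% in the knockout-labelled libraries. MT-TT (positions 15888 to 15953), between MT-CYB and tRNA-Pro, was at 1.54%, 1.51% and 1.80% in WT and 1.16%, 1.11% and 1.05% in the knockout-labelled libraries. Both were lower in each library labelled knockout on the own-mean scale, whereas as deposited replicate 1 exceeded WT in both. The first 100 bases of the tRNA-Pro side arm, as a percentage of MT-CYB coverage, were at 3.87%, 3.77% and 4.59% in WT and at 25.2%, 15.8% and 16.2% in the knockout-labelled libraries. The ratio of means was 4.67, and 3.92 without replicate 1.

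MT-TP (positions 15956 to 16023), the tRNA-Pro gene on the light-strand transcript, had 246, 232 and 269 gene counts in WT and 3352, 613 and 513 in the knockout-labelled libraries. In own-mean coverage it was at 1.87%, 1.59% and 2.01% in WT and 4.91%, 2.41% and 1.90% in the knockout-labelled libraries, and the groups overlapped. MT-TF (positions 577 to 647), the tRNA-Phe gene at the other border, was at 1.17%, 0.792% and 0.654% in WT and 1.38%, 1.17% and 0.752% in the knockout-labelled libraries. MT-RNR1 (positions 648 to 1601), the small-subunit rRNA beyond it, was at 13.1%, 12.4% and 12.1% in WT and 25.1%, 17.4% and 16.5% in the knockout-labelled libraries. MT-RNR1 was thus higher in each library labelled knockout, while the promoter bins before it overlapped between the groups.

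Of 25 nuclear genes whose products copy, transcribe or bind mitochondrial DNA or handle its RNA, all were measured, and edgeR called 4 higher and 3 lower, beside 8.64% of all genes higher and 6.5% lower (15.1% in all). TFB2M, the transcription factor that melts both promoters, rose from 8.28 ± 1.01 to 16.3 ± 1.53 CPM (SD; log2 change 1.07 ± 0.17, edgeR adjusted p = 0.00903). MTERF1, a termination factor that binds downstream of the rRNA genes, rose from 14.4 ± 0.612 to 25.7 ± 2.33 CPM (SD; edgeR adjusted p = 0.0177). The primase-polymerase gene PRIMPOL and the nuclease gene EXOG also rose, by 1.55 and 0.88 on the log2 scale. SSBP1, which coats displaced single-stranded mitochondrial DNA, fell from 52.3 ± 0.86 to 31.0 ± 4.08 CPM (SD; log2 change -0.65 ± 0.17, edgeR adjusted p = 0.0396). The topoisomerase gene TOP1MT and the protease gene LONP1 fell as well, with log2 changes of -1.18 and -1.07. Without knockout-labelled replicate 1 the log2 changes were 1.055 for TFB2M, 0.77 for MTERF1, 1.33 for PRIMPOL and 0.66 for EXOG. They were then -0.75 for SSBP1, -0.88 for TOP1MT and -0.80 for LONP1.

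For the factors not called, TFAM, which packages the DNA and bends both promoters, averaged 87.3 ± 3.90 CPM for WT against 117 ± 21.2 CPM (SD; edgeR adjusted p = 0.128). Without knockout-labelled replicate 1 TFAM was called, with a log2 change of 0.29 (edgeR adjusted p = 0.0046). The polymerase gene POLRMT was at 176 ± 7.78 and 168 ± 47.8 CPM (SD). It was not called without that replicate either (log2 change 0.15, edgeR adjusted p = 0.0953). The median log2 change of the 25 genes was 0.125, beside 0.0055 over all genes. Without knockout-labelled replicate 1, edgeR called 11 of the 25 higher and 7 lower, in a fit that called 44% of all genes. Without WT replicate 1 or 3 it called 0, without WT replicate 2 it called 1 and without knockout-labelled replicate 3 it called 2. These fits called 3.54% to 6.48% of all genes. The fit without knockout-labelled replicate 2 called 9 of the 25 and 14.9% of all genes. Why calls were lost was not tested.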

How the data were processed

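RNA of 3 WT and 3 knockout-labelled HEK-293T libraries was used. Per the submitters' processing notes, the tools were bedtools 2.30.0, SAMtools 1.3.1, HTSeq 0.12.4, HISAT2 2.2.1, DESeq2 and FastQC 0.11.9, with GRCh38; counting options, strand use and the handling of reads that map to more than 1 place are not stated there. The deposited gene tables hold raw whole-number counts per gene. The deposited coverage signal at each mitochondrial base was not whole. In each library all values below 20 were, within a tolerance of 0.1, multiples of 1 smallest increment, which was taken as the worth of 1 read after depth scaling by the authors. Read depth was recovered by dividing by it, and is approximate for high values.

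Coverage was used as deposited and after scaling each library to the same mean mitochondrial coverage (own-mean scale), as single bases and in bins of 50 bases laid from the start of each arm and of the rest of the chromosome (332 bins, 11 and 12 in the arms, whose last bins hold 46 and 26 bases). Tests were limma 3.58.1 on log2 (coverage + 1) with a mean-dependent prior variance (the pseudocount shrinks changes of thinly covered bins), and edgeR 4.0.16 (quasi-likelihood F test, TMM, filterByExpr) for gene counts, in R 4.3.3, each with Benjamini-Hochberg adjustment over all features. Reads in no feature made up 8.75% to 10.8% of counted reads, and 15.9% in knockout-labelled replicate 1, and ambiguous reads 9.74% to 12.5%. Both were left out. Gene positions came from RefSeq (GRCh38). Summaries over an arm have no test, since the members, bins and factor list were chosen with earlier results of these data known. Named bins are those at the borders, of highest and lowest WT coverage, of largest fitted change in each arm, and those holding known elements. Alternatives were pseudocount 10, a minimum coverage of 5, no trend, bins of 25 and 100 bases, medians, other scalings, no count filter, DESeq2 1.42.0, each library left out and a replicate block. The scripts were tested on simulated data. Libraries of a group differed by more than counting noise (chi-square per degree of freedom at least 2.52).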

Additional observations from a re-analysis of the deposited data

How the results depend on the processing

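Leaving out 1 library at a time gave 0 to 12 called control region bins as deposited and 0 to 11 on the own-mean scale, and 0 to 539 and 0 to 529 called bases (43.8% and 57.8% of all bases at the upper ends). Every count above 0 came from leaving out knockout-labelled replicate 1. Scaling by median mitochondrial coverage called 8 bins and 404 bases (37% of all bases). The log2 ratio of whole control region coverage was 1.13 as deposited, and 0.33 to 1.42 with 1 library left out, lowest without knockout-labelled replicate 1. On the own-mean scale it was 0.55, and the median over bases gave 0.12. The control region factors called numbered 7 by edgeR, 12 by DESeq2 (24.1% of all genes called), 1 with a replicate block (5.55%), and 0 to 18 with 1 library left out. C17orf80 changed by 0.64 to 0.86 with 1 library left out, and lost its edgeR call without WT replicate 1, 2 or 3 or knockout-labelled replicate 3 (adjusted p = 0.127, 0.117, 0.0999 and 0.0549), and with a replicate block (0.77, adjusted p = 0.0829). The causes were not tested. Whether same-numbered libraries form pairs is not known. Their deviations from the group means correlated over genes at -0.109, -0.0466 and -0.00519 for replicates 1 to 3. Over bins these values were -0.0549, 0.428 and -0.335, and 3 libraries per group cannot settle the question. With the block 0 control region bins or bases were called, but the main fit also called 0, so there was none to lose. Of all bins on the own-mean scale, the block fit called 14 and the main fit 20. The other 104 alternative values, among them those of both arms and of their ratio, moved by less than 1 SD, or less than 1.5 times for counts, or kept their call. For coverage this was the SD of log2 values between libraries of a group, so sizeable shifts fell under it. The 104 also hold counts of called bins and bases that were 0 beside a main count of 0, which could only stay or rise. Without knockout-labelled replicate 3 the own-mean log2 ratio of the tRNA-Phe side arm went from -0.27 to -0.064. That of positions 201 to 400 went from -0.25 to 0.018, and to -0.59 without knockout-labelled replicate 1. Depth was low in the trough and the promoter bins, where single bases carried as few as 39 reads. The smallest change that could be detected there was not worked out.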

Other observations

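The shape of each arm, taken as log2 coverage over its bases, was compared between libraries by Pearson's r. In the tRNA-Pro side arm (546 bases) r was 0.968 to 0.995 between WT libraries, 0.942 to 0.996 between libraries labelled knockout and 0.602 to 0.933 across the groups, lowest for WT replicate 1 with knockout-labelled replicate 1. In the tRNA-Phe side arm (576 bases) r was 0.973 to 0.996 between WT libraries, 0.917 to 0.979 between libraries labelled knockout and 0.948 to 0.992 across the groups. Without knockout-labelled replicate 1 the values across the groups were 0.803 to 0.933 in the tRNA-Pro side arm. In the tRNA-Phe side arm they were then 0.953 to 0.991. Neighbouring bases share reads, so all these values are descriptions with no test.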
